A study of Mus musculus with 8 samples.

Results

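The mitochondrial ribosomal protein genes studied here are the nuclear genes that the array's own annotation names Mrpl or Mrps followed by a digit. The array carried 76 such genes, 47 named Mrpl, after the large subunit, and 29 named Mrps, after the small subunit. The name does not always match the place of the protein. All 76 were well above background on at least 4 of the 8 arrays and so stand among the 19528 genes that could be tested. They were read by 106 probes; where a gene had several, the brightest was used.

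The study measured RNA from the lower crypts of the jejunum, cut out by laser from methacarn-fixed tissue, 3 h after mice received etoposide. Both groups were Lgr5EGFP-IRES-CreER2/+ mice of 4 to 6 weeks, which carry a green fluorescent reporter and an inducible Cre at the gene Lgr5, and both received 80 mg/kg etoposide into the tail vein. The fasted group had no food for 24 h before the injection and the fed group did, and all mice then had moistened food. Each group held 4 mice, labelled 2 male and 2 female, with 1 array per mouse. Every array therefore comes from etoposide-treated tissue, and the comparison is of feeding before the drug, not of the drug. The captured region is a mixture of cells, so fewer cells of a type and less RNA per cell cannot be told apart. Etoposide traps topoisomerase II on DNA and leaves double-strand breaks.

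Mitochondria keep their own ribosomes, which translate the few messages of the mitochondrial genome into subunits of the respiratory chain and ATP synthase. All of the proteins of these ribosomes are encoded in the nucleus, made in the cytosol and imported, and they assemble on rRNAs transcribed inside the organelle. Their promoters are often of the housekeeping kind, read by nuclear respiratory factor 1 (NRF1), the ETS factor GABP and YY1, and the coactivators of the PGC-1 family act on some of those factors. Intestinal crypts hold stem cells, dividing progenitors and Paneth cells, which differ in how much they rely on mitochondria.

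Promoter sequences are shown first because they are what the 76 genes can be compared by apart from their signal. RefSeq windows from 250 bases before to 50 bases after the start (GRCm38.p6) were matched for 67 of the 76 genes, giving 73 windows. The motif GCGCANGCG of NRF1, read on both strands, lay in 15 of the 73 windows (20.5%), against 6.25% of all 32851 promoters in the table, 8.58% of those of coding genes and 29.2% of those of nuclear respiratory chain genes. CCGGAAG, the core read by ETS factors, lay in 32.9% of the windows, against 8.86% of all promoters, 11.6% of those of coding genes and 33.8% of those of cytosolic ribosomal protein genes. AANATGGCG, read by YY1, lay in 13.7%, against 2.38% of all, 3.12% of coding and 14.7% of cytosolic ribosomal protein promoters. The TATA box TATAAA lay in 6.85% of the windows, against 13.6% of all and 12.6% of coding promoters. The SP1 core GGGCGG lay in 52.1%, against 35.7% of all and 46.2% of coding promoters, CCAAT in 41.1%, against 37.4% and 38.2%, and the E-box CACGTG in 9.59%, against 7.15% and 7.84%. These shares are descriptions, and a match shows no binding. They count windows, and windows of the same gene can overlap, as in Mrpl2, so a site can be counted more than once. Counted by gene, the motif was held by 15 of 67 for NRF1, 24 for ETS, 10 for YY1 and 33 for SP1. It was held by 27 for CCAAT, 5 for the E-box and 5 for the TATA box. The genes with the NRF1 motif had a median log2 difference between fasted and fed arrays of 0.16 and those without it 0.17. With and without the other motifs the medians were 0.14 and 0.16 for ETS, 0.14 and 0.16 for YY1, 0.22 and 0.10 for SP1, 0.16 and 0.19 for CCAAT, -0.02 and 0.17 for the E-box, held by 5 genes, and 0.16 and 0.17 for the TATA box, also held by 5. None of these differences was tested.

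The following windows are the 250 bases before the start of 4 of the 5 genes whose unadjusted p was under 0.05 in the comparison of the groups, with a match to NRF1, ETS or YY1 in capitals. Mrpl12 (chr11:120484387-120484636, plus strand) holds an NRF1 match and Mrpl18 (chr17:12916092-12916341, minus strand) an ETS match. Mrpl42 (chr10:95501950-95502199, minus strand) and Mrps36 (chr13:100744660-100744909, minus strand) hold none of these letters in the stretch shown.
Mrpl12: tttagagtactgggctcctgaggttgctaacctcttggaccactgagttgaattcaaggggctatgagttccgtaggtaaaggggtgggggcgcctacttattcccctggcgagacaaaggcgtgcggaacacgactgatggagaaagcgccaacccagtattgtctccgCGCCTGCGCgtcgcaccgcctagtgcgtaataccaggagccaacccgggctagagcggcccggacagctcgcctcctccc
Mrpl18: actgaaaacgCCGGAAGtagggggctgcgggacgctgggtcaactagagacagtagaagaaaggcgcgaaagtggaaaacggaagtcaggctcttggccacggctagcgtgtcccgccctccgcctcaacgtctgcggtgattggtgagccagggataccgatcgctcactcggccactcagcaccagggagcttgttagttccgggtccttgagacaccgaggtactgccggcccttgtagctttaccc
Mrpl42: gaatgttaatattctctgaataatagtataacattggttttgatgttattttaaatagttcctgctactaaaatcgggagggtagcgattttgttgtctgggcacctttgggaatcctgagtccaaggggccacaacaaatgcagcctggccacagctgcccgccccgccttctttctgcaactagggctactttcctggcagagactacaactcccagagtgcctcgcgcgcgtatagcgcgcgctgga
Mrps36: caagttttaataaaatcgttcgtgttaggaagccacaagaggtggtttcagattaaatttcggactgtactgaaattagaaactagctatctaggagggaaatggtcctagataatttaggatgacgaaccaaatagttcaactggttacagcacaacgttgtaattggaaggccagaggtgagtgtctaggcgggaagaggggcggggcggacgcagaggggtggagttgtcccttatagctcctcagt

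Some of these genes start back to back with another gene. Within 1000 bases, 25 of the 67 matched genes had a neighbour, coding or not, that starts in the opposite direction. The share over all genes was not computed, so this count cannot be read as a trait of the family. In one case both partners are mitochondrial ribosomal protein genes, Mrpl46 of the large subunit and Mrps11 of the small subunit, whose starts lie 42 bases apart on chromosome 7. The 41 bases between the 2 starts (chr7:78783090-78783130 in GRCm38.p6, plus strand) are shown because the pair gave among the highest and the lowest values of the family.
Between Mrpl46 and Mrps11: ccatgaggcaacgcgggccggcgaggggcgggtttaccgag

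None of the 76 genes passed the test for a difference between fasted and fed mice. With limma and Benjamini-Hochberg adjustment over all genes at 0.05, 0 of 76 were called, against a background of 0 of 19528 genes called (0%), and the lowest adjusted p was 0.79. At an unadjusted p under 0.05, 5 of 76 genes (6.58%) were higher in fasted mice, against 3.93% of all genes, and 0 were lower, against 2.02%. The 4 fasted arrays all lay above the 4 fed arrays for 2 genes, Mrpl18 and Mrpl19 (2.63%, against 2.97% of all genes), and all below them for 1 gene, Mrps14 (1.32%, against 2.1%). Mrpl19 passed the filter only through the fasted group, where it is high, so its place in these counts supports nothing. The shares come from 0 to 5 genes and lie near the background. The labels call the arrays of a group biological replicates, and with 4 arrays a group the precision is limited by their number.

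Taken by sign alone, 53 of the 76 genes had a positive difference (69.7%), against 44.5% of all genes, with a median log2 difference of 0.16 against -0.06 for all genes. The fitted differences ran from -0.51 for Mrps11 to 0.94 for Mrpl35, apart from Mrpl19, whose fed arrays were all at background and allow only a bound. In 47 genes (61.8%) the difference was within 0.25 either way, which held for 42.3% of all genes. These shares were not matched for signal strength. The median standard error was 0.25, and in 45 genes the standard error was larger than the difference itself. Of the 47 Mrpl genes 35 were positive, with a median of 0.20, and of the 29 Mrps genes 18 were positive, with a median of 0.04. This split is by name and not by subunit, since Mrps18a lies in the large subunit and Mrps36 is not part of the ribosome. The difference between the name groups was not tested, and without fasted replicate 3 the median of the Mrps genes was -0.04.

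**Figure D1:**
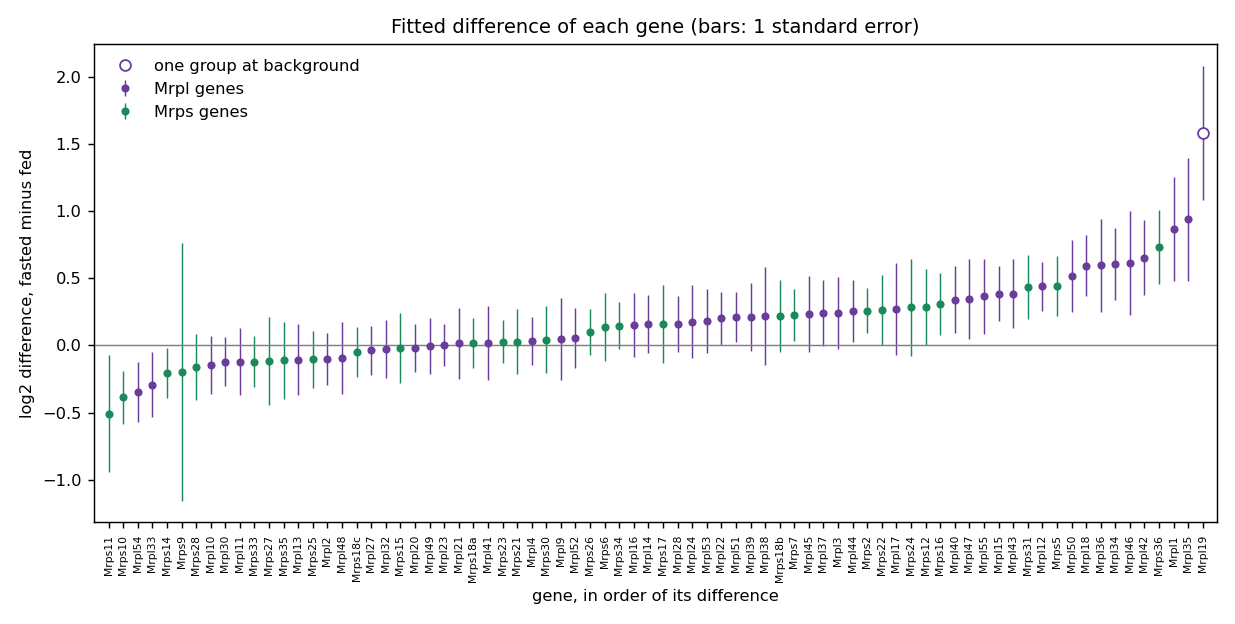
Fitted log2 difference, fasted minus fed, of each of the 76 genes on the vertical axis, in order of size, with bars of 1 standard error; purple points are Mrpl genes, green points Mrps genes, and the open circle is Mrpl19, whose fed arrays were at background. The other differences run from -0.51 (Mrps11) to 0.94 (Mrpl35), the bars of 45 genes are longer than their difference, and the bar of Mrps9 is the longest.

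The positive median depended on single arrays. For each gene the mean over the 8 arrays was subtracted, and the median over the 76 genes was 0.18, -0.02, 0.36 and -0.20 in fasted replicates 1 to 4. It was 0.14, 0.02, -0.11 and -0.37 in fed replicates 1 to 4. The highest median was that of fasted replicate 3, where 62 of 76 genes lay above their own mean, and the lowest that of fed replicate 4, where 9 did. Fasted replicate 4, with 15 genes above their mean, lay below 3 of the 4 fed arrays, so the groups overlap. Without fasted replicate 3 the family had 42 of 76 genes positive and a median of 0.02, and without fed replicate 4 it had 48 and 0.06. With both left out, 34 of 76 were positive and the median was -0.02, beside 49.6% positive among all genes. The arrays left out hold the highest fasted and the lowest fed median, so a fall was built in. Its size is a description and no test.

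**Figure D2:**
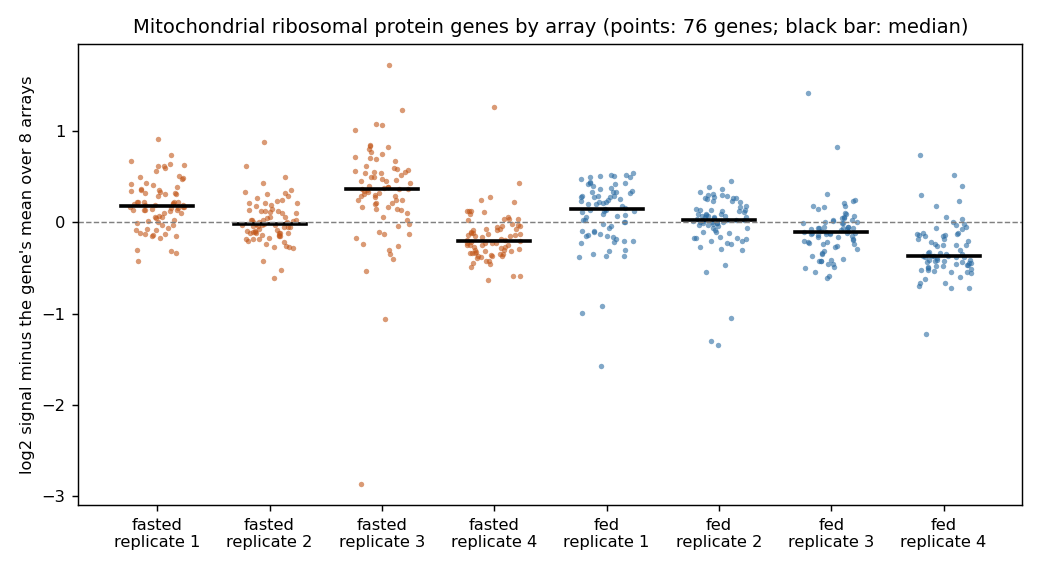
Log2 signal of each of the 76 genes minus its own mean over the 8 arrays (vertical axis), by array; each point is a gene and the black bar is the median. The median is highest in fasted replicate 3 (0.36) and lowest in fed replicate 4 (-0.37), and fasted replicate 4 (-0.20) lies below 3 fed arrays.

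Those 2 arrays also stand apart in other ways. Fasted replicate 3 was the only array scanned on the later scan day and had correlations of 0.904 to 0.950 with the other arrays over all probes. It was also alone on its slide, but so was fed replicate 2. Fed replicate 4 is labelled female, but its log2 signal for Xist, the RNA of the inactive X chromosome, was 4.69, while the remaining 3 arrays with a female label read 13.1 to 13.7. Its signal for the Y-linked Eif2s3y was 9.31, and theirs were 5.05 to 5.29. Its feeding label could not be checked from the files. Fed replicate 1, labelled male, read 5.20 for Xist and 7.29 for Eif2s3y, and neither was well above background. The other arrays with a male label read 8.42 to 9.79 for Eif2s3y, well above background. Of all probes, 53.6% were well above background in fasted replicate 3, 53.2% in fed replicate 1, 55.6% in fed replicate 2 and 60.9% in fasted replicate 1, the 4 arrays with the highest family medians; the other 4 arrays had 62.2% to 65.6%. With that share as a covariate the median was 0.25 with 60 of 76 genes positive, 0 genes were called, and the lowest adjusted p of the family was 0.065 (limma).

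Fasted and fed arrays shared a slide in 3 cases. The within-slide median over the 76 genes was -0.00 for replicate 1 of both groups, 0.09 for fasted replicate 2 with fed replicate 3, and 0.15 for replicate 4 of both groups. In these cases 37, 49 and 57 of the 76 genes were higher in the fasted mouse. On all 3 slides 26 genes were higher (34.2%, against 17.9% of all genes) and 8 were lower (10.5%, against 21.8%). The last of these slides carries fed replicate 4. On the slide of fasted replicate 2 and fed replicate 3, the fasted mouse is labelled male and the fed mouse female.

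In the large subunit, Mrpl19 had the largest fitted difference, against fed arrays at background. It encodes a protein at the interface with the small subunit. Its log2 signal relative to each array's 75th percentile was -3.08, -3.54, -2.11 and -3.40 in fasted replicates 1 to 4 and -5.40, -5.16, -3.82 and -4.07 in fed replicates 1 to 4. Every fasted array lay above every fed array, but the probe (chr6:81911970-81912029 in mm9, minus strand) stood clear of background in 4 fasted mice and in 0 fed mice. The fitted difference was 1.58 (SE 0.50, unadjusted p = 0.013, limma adjusted p = 0.79). The fed arrays give only a bound, by which the mean of the fasted arrays was at least 1.61-fold higher at 75th percentile scaling. That figure describes these arrays alone, has no sampling error attached and does not hold under every scaling. The bound sets the mean of the fasted arrays against the lowest signal well above background on the fed arrays, or the probe's own where that was higher. The fitted value ran from 0.40 with background modelling and quantile scaling to 3.06 in the authors' deposited matrix, so its size rests on how dim signals were treated.

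Mrpl35 and Mrpl1 were also dim. Mrpl35 read -3.30, -3.66, -2.78 and -3.50 in fasted replicates 1 to 4 and -4.77, -4.82, -3.54 and -3.85 in fed replicates 1 to 4, with a difference of 0.94 (SE 0.46, unadjusted p = 0.073). The groups overlap, and the probe stood clear of background in 4 fasted mice but only 1 fed mouse. The fitted value of Mrpl35 ran from 0.20 with background modelling and quantile scaling to 1.70 in the authors' deposited matrix. Mrpl1, of the side stalk where deacylated tRNA leaves, read -1.24, -2.28, -1.30 and -2.02 in fasted mice and -3.06, -2.01, -2.63 and -2.60 in fed mice, a difference of 0.87 (SE 0.39, unadjusted p = 0.056). Fed replicate 2 lay above 2 of the fasted arrays.

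Mrpl42 and Mrpl34 were read well above background on every array. For Mrpl42, a protein with no bacterial counterpart, the values were 2.01, 1.60, 2.10 and 1.16 in fasted replicates 1 to 4 and 1.65, 0.93, 0.97 and 0.72 in fed replicates 1 to 4. The difference of 0.65 (SE 0.28, unadjusted p = 0.047, limma adjusted p = 0.79) came with overlap, as fed replicate 1 lay above fasted replicates 2 and 4. Mrpl34, the counterpart of a small basic bacterial protein, read 2.74, 2.36, 2.59 and 1.97 in fasted mice and 2.58, 1.57, 1.53 and 1.56 in fed mice, a difference of 0.60 (SE 0.27, unadjusted p = 0.054). Here 3 fed arrays lay close together below all fasted arrays, and fed replicate 1 lay among the fasted ones.

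The central protuberance, the crown of the large subunit, was represented by 6 genes, 4 positive, with a median of 0.28. Mrpl18, one of its proteins, read -0.04, -0.38, -0.73 and -0.48 in fasted replicates 1 to 4 and -1.06, -0.88, -1.11 and -0.96 in fed replicates 1 to 4. All fasted arrays lay above all fed arrays, the closest being fasted replicate 3 and fed replicate 2, and the fitted difference was 0.59 (SE 0.23, unadjusted p = 0.030, limma adjusted p = 0.79). Mrpl18 was chosen for these values after they were seen. Mrpl46, of the same region, read -0.41, -0.65, 0.40 and -1.41 in fasted mice and -0.96, -0.88, -1.37 and -1.30 in fed mice. Its difference of 0.61 (SE 0.39, unadjusted p = 0.15) was 0.21 without fasted replicate 3, the highest array, and the lowest value of all was also from a fasted mouse. Mrpl48 of this group had the lowest difference, -0.09 (SE 0.27), which was 0.13 without fasted replicate 2.

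The stalk, which recruits the GTPase factors of translation, had 3 genes. Mrpl12, which encodes its L7/L12-type protein, read 3.10, 2.98, 2.92 and 2.41 in fasted replicates 1 to 4 and 2.76, 2.45, 2.26 and 2.19 in fed replicates 1 to 4. Fasted replicate 4 alone fell within the range of the fed arrays, and the difference was 0.44 (SE 0.18, unadjusted p = 0.041, limma adjusted p = 0.79), between 0.34 and 0.54 over all alternatives. The other stalk genes had differences smaller than their standard errors, -0.12 (SE 0.25) for Mrpl11 and -0.15 (SE 0.22) for Mrpl10, and that of Mrpl11 was 0.0024 without fed replicate 1.

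Around the peptidyl transferase centre, where peptide bonds form, 3 of 4 genes were positive with a median of 0.09. Mrpl3, mutated in an inherited cardiomyopathy of mitochondrial translation, had the highest difference of these, 0.24 (SE 0.27), and Mrpl2 the lowest, -0.10, which turned to 0.02 with quantile scaling. At the exit tunnel, through which the new chain leaves, 5 of 5 genes were positive, from 0.005 for Mrpl23 to 0.26 for Mrpl44. Mrpl45, which anchors the ribosome to the inner membrane at the tunnel exit, had a difference of 0.24 (SE 0.28) that was -0.03 without fasted replicate 3. These role groups were drawn up after values of these data had been seen.

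Of the large-subunit genes with negative values, Mrpl54 and Mrpl33 had the largest. Mrpl54 read 1.98, 1.53, 2.43 and 1.90 in fasted replicates 1 to 4 and 2.27, 2.43, 2.44 and 2.11 in fed replicates 1 to 4, a difference of -0.35 (SE 0.22). Fasted replicate 3 matched the fed arrays while the other fasted arrays lay below them. Mrpl33, whose bacterial counterpart lies near the tRNA exit site, read 4.20, 3.86, 4.55 and 3.93 in fasted mice and 4.78, 4.57, 4.44 and 3.91 in fed mice, a difference of -0.29 (SE 0.24), and the groups overlap. Nearest to 0 were Mrpl49 (-0.005), Mrpl23 (0.005) and Mrpl21 (0.01), whose signs carry no information.

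In the small subunit the largest difference was that of Mrps36, which despite its name is now known as a subunit that joins the 2-oxoglutarate dehydrogenase complex of the citric acid cycle and is not part of the mitochondrial ribosome. It read 0.61, 0.54, 0.79 and -0.29 in fasted replicates 1 to 4 and 0.03, -0.26, -0.37 and -0.67 in fed replicates 1 to 4. Fasted replicates 1 to 3 lay above all fed arrays and fasted replicate 4 lay among them, with a difference of 0.73 (SE 0.27, unadjusted p = 0.028, limma adjusted p = 0.79). Its other probe gave 0.56. Leaving this gene out of the counts would leave no Mrps gene with an unadjusted p under 0.05.

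Of the small-subunit proteins conserved from bacteria, 8 of 13 were positive with a median of 0.14. Mrps5, which sits near the mRNA entry and bears on decoding accuracy, had the highest value of this group. It read 1.03, 0.72, 0.89 and 0.36 in fasted replicates 1 to 4 and 0.54, 0.25, 0.42 and 0.0046 in fed replicates 1 to 4, a difference of 0.44 (SE 0.22, unadjusted p = 0.082). Fasted replicate 4 again lay within the range of the fed arrays. Mrps12, of the decoding centre, had a difference of 0.29 (SE 0.28), and Mrps16, mutated in a neonatal disease of mitochondrial translation, 0.31 (SE 0.23).

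Mrps11, of the platform near the mRNA exit, had the lowest difference of all 76 genes. It read 2.38, 2.99, 1.63 and 2.72 in fasted replicates 1 to 4 and 2.53, 2.39, 4.10 and 2.73 in fed replicates 1 to 4. Fed replicate 3 was far above and fasted replicate 3 far below the other 6 arrays, whose groups overlap. The difference of -0.51 (SE 0.44, unadjusted p = 0.28) was -0.09 without fed replicate 3. Thus Mrpl46 and Mrps11, with starts 42 bases apart, had differences of opposite sign, each resting on single arrays. Among the 20 back-to-back pairs in which both genes were tested, 9 had the same sign and 11 opposite signs.

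Mrps10 and Mrps14, both of the head of the small subunit, had lower mean values in fasted mice, and neither passed the test. Mrps10 read 5.05, 5.34, 4.84 and 5.50 in fasted replicates 1 to 4 and 5.87, 5.31, 5.55 and 5.55 in fed replicates 1 to 4, a difference of -0.39 (SE 0.20, unadjusted p = 0.087). Fed replicate 2 kept the groups from separating. Mrps14 read 0.30, 0.15, 0.32 and 0.27 in fasted mice and 0.56, 0.45, 0.51 and 0.34 in fed mice. Every fasted array lay below every fed array, yet the difference was -0.20 (SE 0.19, unadjusted p = 0.31), and a second probe of Mrps14 gave 0.34, so the direction depends on the probe.

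**Figure D3:**
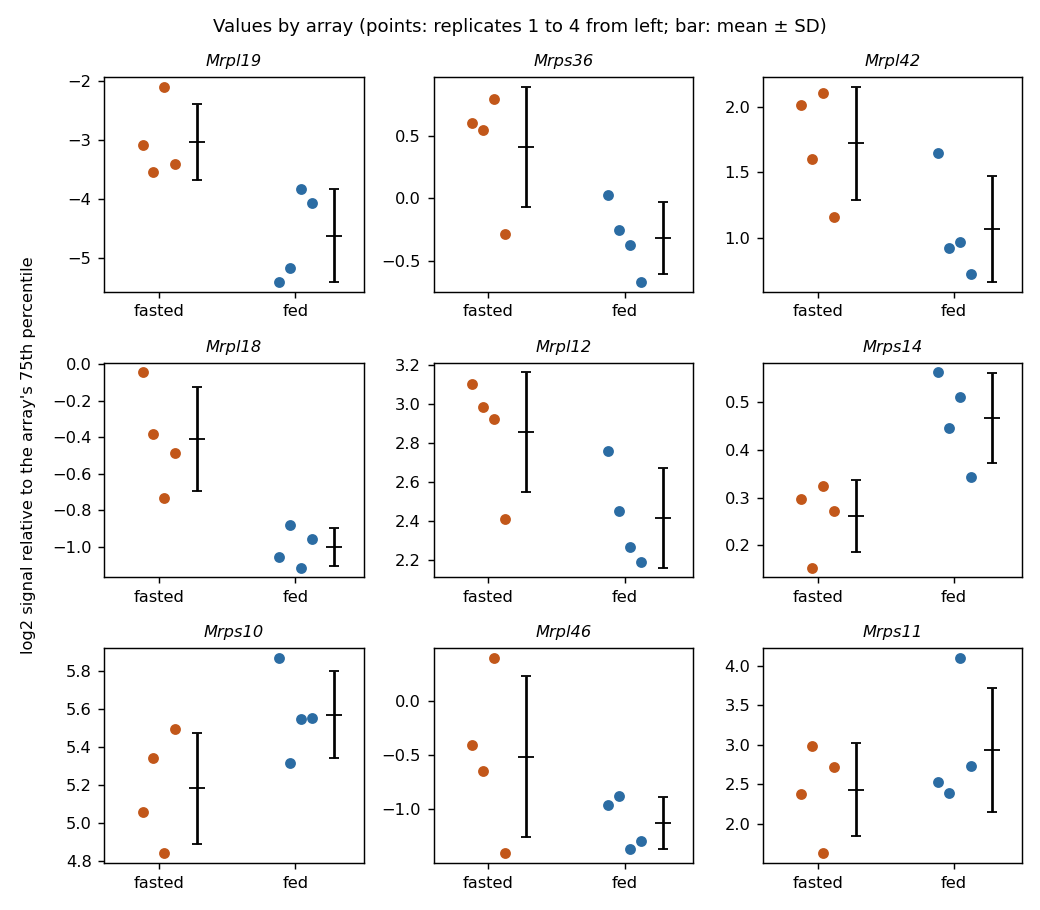
Log2 signal relative to the array's 75th percentile (vertical axis, a separate scale for each gene) in the 4 fasted and 4 fed arrays, for 9 genes; points are replicates 1 to 4 from left to right and the bar is the mean ± SD. Mrpl18 and Mrpl19 separate upward and Mrps14 downward in fasted mice, while in Mrpl46 and Mrps11 single arrays stand far from the rest; fed values of Mrpl19 were not well above background.

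Mrps9 had the least certain value. It read -2.45, -1.92, -5.66 and -1.53 in fasted replicates 1 to 4 and -2.64, -4.09, -1.97 and -2.06 in fed replicates 1 to 4, with 3 arrays of each group well above background. The low values of fasted replicate 3 and fed replicate 2 set a difference of -0.20 with SE 0.96, and it was 0.90 without fasted replicate 3. Mrps28 had a difference of -0.16 (SE 0.25). Of 10 small-subunit proteins particular to mitochondria, 5 were positive, with a median of -0.04. Mrps22 of these, mutated in an inherited mitochondrial disease, read 0.03, -0.07, 0.55 and -0.05 in fasted mice and -0.38, 0.21, 0.01 and -0.43 in fed mice, a difference of 0.26 (SE 0.26), in which fasted replicate 3 stands above the other fasted arrays.

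The 3 paralogs of bacterial S18 occupy separate places: Mrps18c and Mrps18b in the small subunit and Mrps18a, against its name, in the large one. Their differences were 0.02 (SE 0.19) for Mrps18a, 0.22 (SE 0.27) for Mrps18b and -0.05 (SE 0.19) for Mrps18c. None exceeded its standard error.

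Probes of the same gene gave a further view of spread, but not an independent estimate of error. They read the same RNA samples, and some, such as those of Mrpl23 and Mrpl40, overlap in sequence. For 23 genes several probes passed the filter, and their differences lay a median of 0.17 apart, about as large as the family's median difference. In 7 of the 23 the probes had opposite signs. The widest gap was in Mrpl27, at -0.04 for the brightest probe and 0.67 for the other, and the next in Mrpl47, from 0.30 to 0.87 over 4 probes.

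Labelled sex moved the family no more clearly. In the same limma fit 0 of 76 genes were called, against 0% of 19528, and 1 gene had an unadjusted p under 0.05, Mrps16, at -0.55 (female minus male, unadjusted p = 0.044), beside 442 of the 19528 genes. For feeding by labelled sex, 0 of 76 genes were called, against 0% of 19488, and 0 had an unadjusted p under 0.05, beside 625 of the 19488. Since fed replicate 4 goes against its label, both describe the labels and not the animals' sex. The fit for feeding also holds labelled sex as a term. Without that term 53 of 76 genes were positive, with a median of 0.16 and 0 calls. If the Xist and Eif2s3y signals of fed replicate 4 give its sex, the groups were not balanced for sex. Sex and feeding would then be partly mixed, which was not tested.

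In other lists of genes for mitochondrial gene expression 0 genes were called. Of 6 mitochondrial ribosomal proteins with other names, 5 were positive with a median of 0.07, from Aurkaip1 at -0.36 to Ptcd3 at 0.41; Gadd45gip1 had 0.15. Without fasted replicate 3 this list had 2 of 6 positive and a median of -0.06. Of 12 translation factors, 8 were positive with a median of 0.10. Gfm1, the elongation factor that moves the ribosome along the message, read 0.01, -0.29, -0.33 and -0.54 in fasted replicates 1 to 4 and -1.23, -0.79, -0.96 and -0.80 in fed replicates 1 to 4. All fasted arrays lay above all fed arrays, with a difference of 0.66 (SE 0.24, unadjusted p = 0.024, limma adjusted p = 0.79). Gfm2, which splits ribosomes after termination, had 0.35, and the initiation factor Mtif2 -0.22.

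Of 18 genes that charge mitochondrial tRNAs, 15 were positive with a median of 0.15. Gatc, a subunit of the amidotransferase that completes glutaminyl-tRNA, had a difference of 1.62 (SE 0.60, unadjusted p = 0.026) but stood clear of background in 4 fasted mice and only 1 fed mouse. The arginyl-tRNA synthetase Rars2 had 0.61 and the glutamyl-tRNA synthetase Ears2 -0.40. Of 23 genes of ribosome assembly, 15 were positive with a median of 0.14. The pseudouridine synthase Rpusd3 had 0.75, while the methyltransferases Mrm2 and Mrm3, which modify the large mitochondrial rRNA, had -0.51 and -0.67. All fasted arrays lay above all fed arrays in 1 gene of this list, Trub2, and below them in 1, Mrm2. Of 18 genes of mitochondrial transcription and RNA processing, 14 were positive with a median of 0.28. In 2 of them, the tRNA-processing nuclease Elac2 (0.42) and the mitochondrial RNA polymerase Polrmt (0.35), all fasted arrays lay above all fed arrays, which held for 2.97% of all genes, with 2.1% the other way. Elac2 was 0.04 with the mean of its probes. Ptcd2 had 0.59 and Ptcd1 -0.46. Without fasted replicate 3, the medians of the translation factor, tRNA, assembly and transcription lists were 0.08, 0.05, 0.03 and 0.08.

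Of 10 regulators of nuclear genes for mitochondria, 6 were positive with a median of 0.16, which was -0.07 without fasted replicate 3. Ppargc1a, the coactivator PGC-1 alpha, known to be induced by fasting in liver, read -0.25, 0.54, -1.08 and -0.24 in fasted replicates 1 to 4 and -0.71, -2.34, -0.91 and -2.27 in fed replicates 1 to 4. The fasted arrays were higher apart from fasted replicate 3, which lay below 2 fed arrays, with a difference of 1.30 (SE 0.49, unadjusted p = 0.028, limma adjusted p = 0.79). Ppargc1b had 0.66 and Nrf1 0.33.

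The 13 messages of the mitochondrial genome, which these ribosomes translate, had negative values in all 13 with a median of -0.22 at 75th percentile scaling, but 10 of 13 were positive with quantile scaling, 8 with background modelling and quantile scaling, 5 in the authors' deposited matrix and 9 without fed replicate 1. COX1 had the lowest, -0.57 (SE 0.24, limma unadjusted p = 0.045). ND4, not measured in fasted replicate 2, had -0.40, and ND4L, whose probe the files place on chromosome 1, had -0.30. Whether the ND4L probe reads the mitochondrial message is not known, and it is counted among the 13. Cytosolic ribosomal protein genes were likewise 6 of 78 positive with a median of -0.21 at 75th percentile scaling, and 49, 49 and 39 of 78 under the same 3 alternatives. Nuclear respiratory chain genes were 28 of 82 positive with a median of -0.06, and 57, 60 and 49 of 82. The mitochondrial ribosomal protein genes had 55, 55 and 51 of 76 positive, with medians of 0.17, 0.16 and 0.11, and 51, 51 and 49 of these were among the 53 positive at 75th percentile scaling. The differences between these lists were not tested.

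**Figure D4:**
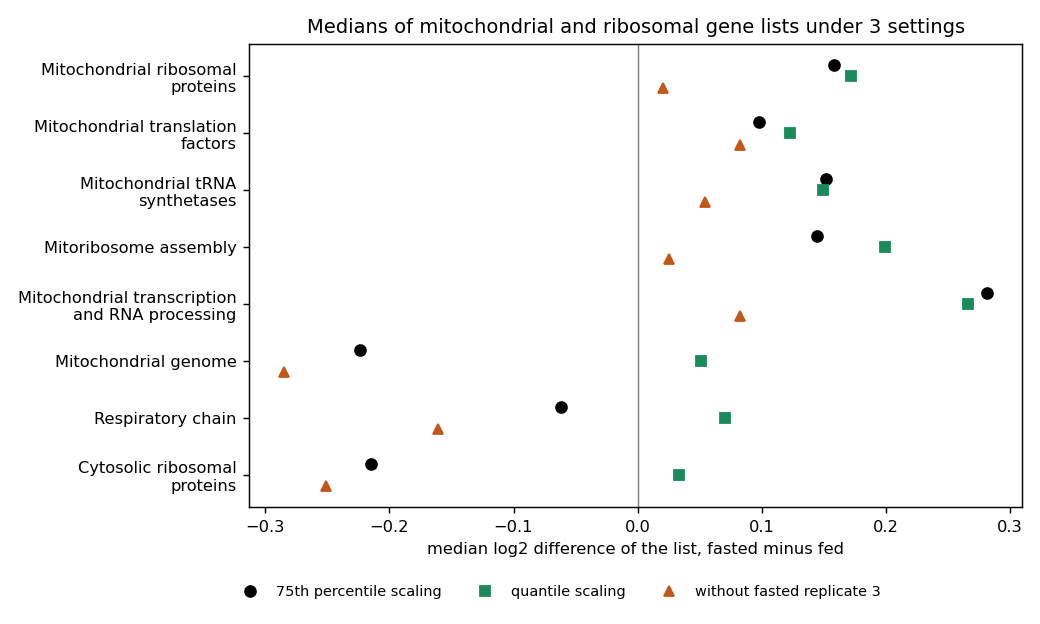
Median log2 difference, fasted minus fed, of 8 gene lists (horizontal axis) at 75th percentile scaling (circles), quantile scaling (squares) and without fasted replicate 3 (triangles). The mitochondrial ribosomal protein median is 0.16, 0.17 and 0.02 in that order, while the mitochondrial genome and cytosolic ribosomal protein medians change sign with quantile scaling.

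Markers of some cell types differed in level between the groups, though 0 were called. All 20 enterocyte markers had positive differences, with a median of 1.06. Their summed linear signal relative to each array's 75th percentile was 110 to 228 in fasted and 55.1 to 96.9 in fed mice, without overlap. At an unadjusted limma p under 0.05, 14 of 20 were higher in fasted mice, against 3.93% of all genes. All 9 Paneth markers were negative at 75th percentile scaling, with a median of -0.44 and a summed signal of 454 to 597 against 606 to 830; the median was -0.11 with quantile scaling and -0.16 in the authors' deposited matrix. Of the stem cell markers, 7 of 12 were positive with a median of 0.07, and Lgr5, which defines these cells and carries the reporter, stayed at background on all 8 arrays. Of 8 proliferation markers measured, 6 were positive with a median of 0.14, while Top2a, Aurkb, Bub1 and Ccna2 stayed at background. The medians were -0.18 for goblet, 0.12 for enteroendocrine, 0.40 for tuft, -0.08 for fibroblast and muscle, -0.28 for endothelial and -0.29 for leukocyte markers. Several of these medians changed sign: without fasted replicate 3 that of stem cell markers was -0.14 and of enteroendocrine markers -0.33, with quantile scaling that of goblet markers was 0.02, without fasted replicate 1 that of tuft markers was -0.05, and without fasted replicate 2 that of fibroblast and muscle markers was 0.07. The summed signal of the 76 genes was 323 to 398 in fasted and 303 to 426 in fed mice, with full overlap. The part of the cell mixture in the values above was not tested.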

How the data were processed

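Per the labels' protocols, 8 laser-captured RNA samples, 1 per mouse, were labelled with Cy5 for Agilent mouse arrays. Per the file headers, the deposited scanner files give each spot's intensity, with the local background already subtracted by Agilent Feature Extraction 11.5.1.1 in the processed signal used here. A second table deposited by the authors is on the log2 scale; within each array it ranked probes as the processed signal did (Spearman correlation at least 0.999), its column medians ran from 7.73 to 8.33, and its scaling and centring stay unknown.

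Control spots and spots with an outlier mark were left out, leaving 39429 probes, of which 27655 were named by RefSeq accession (GRCm38.p6) and 11774 kept the name in the files. Mrpl57 and Mrpl58 carry older names in the files and so fall outside the name rule. Each array's 75th percentile was subtracted from its log2 processed signals, and a probe entered the test where 4 or more of the 8 arrays read it well above background. Probe positions are in mm9 and promoters in GRCm38.p6. The share of probes clear of background ran from 53.2% to 65.6% over the arrays, and none was saturated. Values of different probes are not comparable as levels.

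A linear model (limma 3.58.1, lmFit and trended eBayes, R 4.3.3) was fitted to 19528 genes with group and labelled sex as terms; p-values are 2-sided and adjusted by Benjamini-Hochberg. The fit was tested on simulated data. Figures and sequences were made in Python 3.11.15. The text names the 7 genes with the highest and the 7 with the lowest difference, the 3 nearest 0, 11 chosen by role, the 3 whose probes lay farthest apart and the 3 with the smallest p of each pathway list; Mrpl18, Polrmt, Trub2, Mrpl2, Mrpl10, Mrpl11 and Mrpl48 were named after their values were seen. Members and lists were chosen with earlier results of these data known. Alternatives were other scalings, the deposited matrix, filters, probe averaging, models with slide, replicate or background share, and each array left out.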

Additional observations from a re-analysis of the deposited data

Results flagged for a closer look

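In Mrpl34, a large-subunit gene, fed replicate 1 read 2.58 (log2 relative to the array's 75th percentile), against 1.53 to 1.57 in the other 3 fed arrays, and was set apart as a sample far from the rest of its group. In Mrps22, of the small subunit, fasted replicate 3 read 0.55, against -0.07 to 0.03 in the other 3 fasted arrays, for the same reason. Of 62 groups of 4 arrays looked at, chance alone marks about 1 in 20.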

How the results depend on the processing

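Under all 23 alternatives 0 genes were called by limma for fasted against fed, with adjusted p of the family's lowest gene from 0.065 (background share as a covariate) to 0.998, and 0 to 17 family genes were higher and 0 to 2 lower at an unadjusted p under 0.05; the 17 come from that covariate fit, in which 1702 of all 19528 genes were higher and 3789 lower. The count of positive genes was 53 of 76 and moved most without fasted replicate 3 and fed replicate 4 together, to 34. Those arrays had the highest and the lowest family median, so a fall was built in. With slide as a fixed or random block the count was 46 and 48, with medians of 0.09. Leaving out 1 array gave 42 to 58 positive genes. For feeding by labelled sex, 0 to 1 genes were called on leaving out 1 array: without fasted replicate 4, which leaves fasted replicate 3 as the only fasted array labelled female, 1 of 76 family genes, Mrps9, was called (limma adjusted p = 0.027), beside 2224 of 19485 genes (11.4%); the lone array is assumed to vary like the other groups.

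The replicate block kept 53 of 76 positive, a median of 0.16 and 0 calls (lowest adjusted p 0.75), and changed no other call. Same-numbered arrays correlated at 0.37, -0.47, -0.45 and 0.61 in their deviations, so the numbers were not taken to pair the samples. Replicates 1 and replicates 4, at 0.37 and 0.61, also shared a slide. The remaining pair on the same slide correlated at 0.54. Arrays that shared neither number nor slide ran from -0.51 to 0.50, with 0.46 for fasted replicate 3 and fed replicate 2. Values of that size therefore also occurred without a shared slide.

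Signs turned in genes with small or uncertain differences; the cause was not tested. With quantile scaling Mrpl49 was 0.061, Mrpl2 0.019 and Mrpl21 -0.0024; with background modelling and quantile scaling Mrpl49 was 0.099, Mrpl2 0.056 and Mrps18a -0.032; in the deposited matrix Mrpl49 was 0.033 and Mrpl21 -0.080. With the mean of a gene's probes Mrps14 was 0.066, Mrpl49 0.17, Mrpl23 -0.035 and Mrpl27 0.32. With the background share as a covariate Mrpl11 was 0.029 and Mrpl48 0.081. With slide as a fixed block Mrps9 was 0.26, Mrpl49 0.036, Mrpl23 -0.013, Mrpl21 -0.085, Mrps18a -0.099 and Mrps18c 0.098; as a random block they were 0.064, 0.00064, -0.030, -0.029, -0.033 and 0.012. Without fasted replicate 3 and fed replicate 4 together Mrps9 was 0.94, Mrpl23 -0.064, Mrpl21 -0.27, Mrps18a -0.15, Mrps18b -0.086, Mrps18c 0.0061, Mrps12 -0.0080, Mrpl45 -0.066, Mrpl2 0.00091 and Mrpl27 0.090. On leaving out 1 array the range was -0.13 to 0.14 for Mrpl49, -0.19 to 0.18 for Mrpl21, -0.77 to 0.90 for Mrps9, -0.12 to 0.087 for Mrps18a, -0.039 to 0.086 for Mrpl23, -0.044 to 0.40 for Mrps18b, -0.10 to 0.011 for Mrps18c, -0.031 to 0.38 for Mrpl45, -0.11 to 0.041 for Mrpl27, -0.23 to 0.022 for Mrpl2, -0.32 to 0.0024 for Mrpl11 and -0.28 to 0.13 for Mrpl48. The other named family genes kept their sign under every alternative run. Of 22 pathway genes recomputed the same way, Trub2 not among them, Gadd45gip1 (-0.0032 without fasted replicate 3 and fed replicate 4 together) and ND4L (0.034 with quantile scaling) changed sign. Dim probes limit Mrpl19, Mrpl35 and Mrps9, which were not well above background on every array.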
